A study of Mus musculus with 6 samples.

Results

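The genes described here encode ion pumps, 3 beta subunits of the sodium-potassium pump (Atp1b1, Atp1b2 and Atp1b3), the calcium pump of the endoplasmic reticulum (Atp2a2) and 3 calcium pumps of the plasma membrane (Atp2b1, Atp2b2 and Atp2b3). They were chosen by name, and all 7 were found among the 29547 rows of the deposited table. RNA bound to phosphorylated ribosomes was precipitated with an antibody to phosphorylated ribosomal protein S6 from mouse vBNST, the ventral part of the bed nucleus of the stria terminalis, and then sequenced after rRNA depletion. Mice had gone through a CS+ or CS- test 90 min earlier. There were 3 CS and 3 Con libraries. The labels do not tie the name CS to CS+ or to CS-, do not say what Con animals received, and give no strain, genotype, sex, age or number of animals per library. Since nothing says that libraries came from separate animals, the p-values below rest on a spread between libraries that may be technical.

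Every cell of the brain spends ATP to hold its ion gradients. The sodium-potassium pump moves sodium out and potassium in, and consists of a catalytic alpha subunit and a beta subunit that is needed for folding of the pump and its delivery to the surface. In brain the beta1 subunit is mainly neuronal, beta2 was described as an adhesion molecule on glia and is most abundant in astrocytes, and beta3 has a broader distribution. Calcium that enters during firing is pumped into the endoplasmic reticulum by SERCA2, the product of Atp2a2, or across the plasma membrane by the calmodulin-activated pumps PMCA1, PMCA2 and PMCA3, the products of Atp2b1, Atp2b2 and Atp2b3. PMCA1 occurs in most cell types, while PMCA2 and PMCA3 are largely restricted to neurons and other excitable or sensory cells.

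Libraries held 1365181 to 2342686 assigned reads in CS and 765769 to 1427784 in Con, and 1 read on a row of 1 kilobase was worth between 0.427 and 1.31 RPKM (reads per kilobase of row length and per 1e6 assigned reads). The pump genes together held 0.115% to 0.158% of the reads of a CS library and 0.132% to 0.137% of those of a Con library. Before testing, each library was scaled to a common median over rows; unscaled, the CS libraries lay 0.37 higher than the Con libraries (log2). Levels below are RPKM after this scaling unless they are called deposited, and every log2 fold change is CS minus Con from limma on log2(RPKM + 0.1), with its standard error (SE). The scaling decides the direction of genes whose change is smaller than that shift, so the change in the deposited values is given too. GABAergic genes that mark most vBNST neurons were present in all libraries. The summed level of Gad1, Gad2 and Slc32a1 was 32.8 to 49.0 RPKM in CS and 29.8 to 35.9 RPKM in Con. In the deposited values the groups were apart for this sum, with 39.5 to 55.0 RPKM in CS and 24.2 to 31.7 RPKM in Con. As deposited, 18.5% of single rows also had all CS libraries above all Con libraries.

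None of the 7 pump genes passed the threshold of 0.05 after Benjamini-Hochberg adjustment over the 20550 tested rows (limma), where 0.968% of rows passed (0.175% higher and 0.793% lower in CS). All 7 had passed the filter on low values, a mean of at least 0.5 RPKM. Without adjustment, limma gave a p under 0.05 for 2 lower pump genes, Atp1b3 and Atp2b1, and for 0 higher ones, against 8.77% of all rows lower and 3.77% higher. By limma voom on the reads, 0 of the 7 passed either, with 6.55% of 10463 rows called, and 0 when library totals replaced median scaling, with 5.02% called. In the deposited values limma called 0 of the 7 and 0.316% of rows (0.170% higher and 0.146% lower). The CS and Con libraries did not overlap for 2 of the 7 genes after scaling and for 3 in the deposited values, against 23.0% and 25.0% of all rows. Estimates were lower in CS for 5 and higher for 2, with a median log2 fold change of -0.47, where all tested rows had 0.03. In the deposited values the median of the 7 was -0.10, against 0.41 for all rows.

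**Figure D1:**
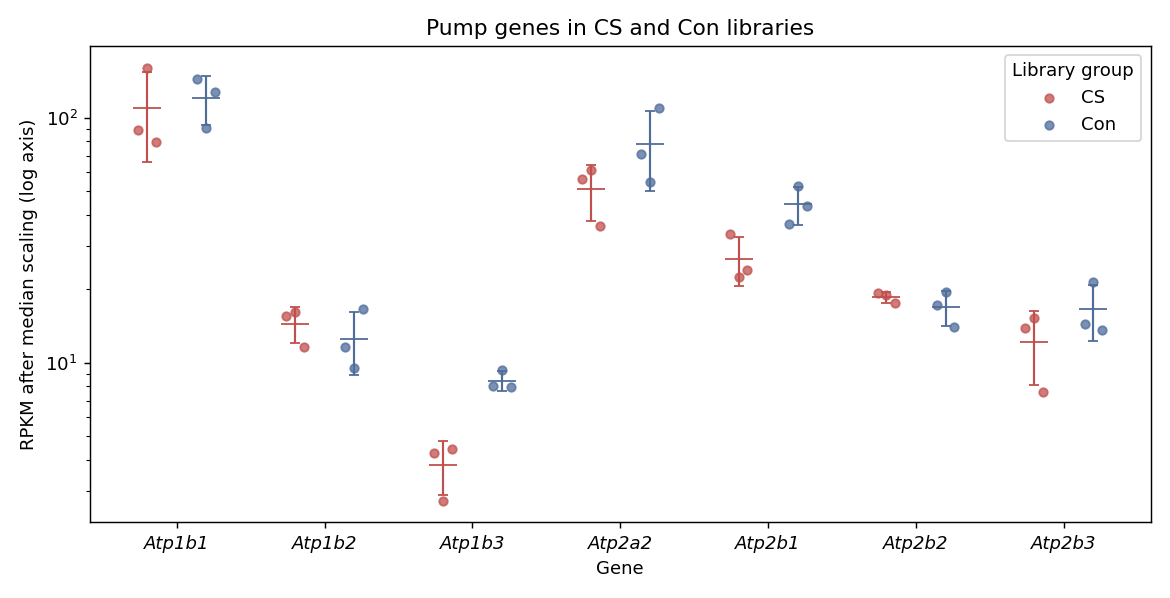
RPKM after median scaling (log axis) of the 7 pump genes, with a point per library, CS left of Con, a horizontal dash at the mean and bars of 1 SD (n = 3 libraries per group). The groups are apart for Atp1b3 and Atp2b1, with every CS library below every Con library, and they overlap for the other 5 genes.

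Per length, Atp1b1 was the most abundant pump gene and Atp1b3 the least. Over the 6 libraries Atp1b1 had a mean of 115 ± 33.2 RPKM (SD), Atp2a2 64.7 ± 24.5, Atp2b1 35.5 ± 11.6, Atp2b2 17.7 ± 2.05, Atp2b3 14.3 ± 4.41, Atp1b2 13.5 ± 2.94 and Atp1b3 6.14 ± 2.65. Each of the first 3 genes lay above the next in all 6 libraries. The order of Atp2b2, Atp2b3 and Atp1b2 was not the same in every library, since Atp2b2 was above Atp2b3 in 5 libraries and Atp2b3 above Atp1b2 in 2. Atp1b2 lay above Atp1b3 in all 6. The order of Atp1b2 and Atp2b3 differed between the groups, with means of 14.4 and 12.2 RPKM in CS against 12.5 and 16.5 RPKM in Con.

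The sodium pump subunits come first. Atp1b1 lies on chromosome 1 (164437109 to 164458355, minus strand, GRCm38, 7 merged exons). Its level was 89.1, 160 and 79.8 RPKM in CS libraries 1, 2 and 3, against 144, 90.3 and 127 RPKM in Con libraries 1, 2 and 3. CS library 2 was the highest of all and the other CS libraries the lowest, so the groups overlapped fully. Its log2 fold change was -0.18 ± 0.31 SE (95% interval -0.93 to 0.57, limma adjusted p = 0.851). It turned to 0.19 in the deposited values and 0.014 without CS library 3. Of its exon bases 18.7% overlap Nme7 on the opposite strand, and Nme7 held 58 reads where Atp1b1 held 3009.

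Atp1b2, the glial beta subunit, lies on chromosome 11 (69599736 to 69605942, minus strand). It had 15.5, 16.1 and 11.6 RPKM in the CS libraries, against 11.6, 9.46 and 16.5 RPKM in the Con libraries. CS libraries 1 and 2 were above Con libraries 1 and 2, while Con library 3 was the highest of the 6. The estimated log2 change was 0.22 ± 0.26 SE (95% interval -0.41 to 0.86, limma adjusted p = 0.784). In the deposited values all CS libraries (17.2, 18.1 and 14.0 RPKM) lay above all Con libraries (10.2, 9.17 and 13.4 RPKM), as they did for 18.5% of all rows, and the log2 fold change was 0.59 ± 0.22 SE (limma adjusted p = 0.259).

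Atp1b3, which encodes the third beta subunit, lies on chromosome 9 (96332655 to 96364442, minus strand). Its level was 4.29, 2.73 and 4.45 RPKM in CS libraries 1, 2 and 3, against 8.05, 9.35 and 7.95 RPKM in Con libraries 1, 2 and 3. Every CS library was below every Con library, also in the deposited values, and such a separation downward was found in 15.4% of all rows after scaling and in 6.50% as deposited. The estimate was a log2 fold change of -1.16 ± 0.27 SE (95% interval -1.81 to -0.51), a level 0.448 times that of Con, and did not pass (unadjusted p = 0.00436 and adjusted p = 0.126 in limma's fit over all rows). This was the largest change among the pump genes, and it rested on 58 reads in CS and 61 in Con. With 10 reads in CS library 2, the lowest count of the 6, the exact Poisson 95% interval runs from 4.80 to 18.4 reads and covers counting error only. Counting alone gives a relative SD of 24.5% in CS and 22.9% in Con, where the libraries varied by 24.8% and 9.25%. No library is labelled as RNA taken before precipitation. Fewer cells of a type, less RNA per cell and less RNA bound to phosphorylated ribosomes therefore cannot be told apart.

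Among the calcium pumps, Atp2a2, on chromosome 5 (122453513 to 122502225, minus strand), encodes the SERCA pump found in most cells. It had 56.0, 61.2 and 36.2 RPKM in the CS libraries, against 71.3, 54.4 and 109 RPKM in the Con libraries. Con library 3 was the highest and CS library 3 the lowest, and Con library 2 lay below the upper CS libraries. Its estimated log2 change was -0.59 ± 0.32 SE (95% interval -1.35 to 0.17, limma adjusted p = 0.514) and -0.22 in the deposited values. Its exons share 83 bases with Gm43361 on the opposite strand, a row of 382 reads where Atp2a2 held 3236.

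Atp2b1 (PMCA1) lies on chromosome 10 (98915152 to 99026143, plus strand). It had 33.5, 22.4 and 23.9 RPKM in CS libraries 1, 2 and 3, against 36.7, 52.7 and 43.6 RPKM in Con libraries 1, 2 and 3. All CS libraries were below all Con libraries, as in 15.4% of all rows, although CS library 1 and Con library 1 lay close together. The log2 fold change was -0.74 ± 0.22 SE (95% interval -1.27 to -0.21, 0.598 times the level of Con) and did not pass (unadjusted p = 0.0135 and adjusted p = 0.225 in limma's fit). By voom it was -0.75 ± 0.21 SE (limma voom adjusted p = 0.0605). As deposited the groups overlapped and the log2 fold change was -0.37 ± 0.24 SE (limma adjusted p = 0.46). With 1145 reads in CS and 974 in Con, counting alone gives a relative SD of 5.28% and 5.86%, below the 22.5% and 18.0% by which the libraries varied.

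Atp2b2 (PMCA2), on chromosome 6 (113743831 to 114042613, minus strand), had 19.2, 18.8 and 17.4 RPKM in the CS libraries, against 17.2, 19.5 and 14.0 RPKM in the Con libraries. Its groups overlapped, and it varied least of all 7 genes among CS libraries, by 5.08% where counting alone gives 4.70%. Its log2 fold change was 0.14 ± 0.18 SE (95% interval -0.30 to 0.57, limma adjusted p = 0.798). In the deposited values it was 0.51 ± 0.22 SE (limma adjusted p = 0.312). All CS libraries (21.0 to 21.4 RPKM) then lay above all Con libraries (11.3 to 18.9 RPKM), as they did for 18.5% of all rows.

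Atp2b3 (PMCA3), on the X chromosome (73503086 to 73571005, plus strand), had 13.8, 15.2 and 7.57 RPKM in the CS libraries, against 14.4, 21.4 and 13.6 RPKM in the Con libraries. CS library 3 was the lowest and Con library 2 the highest, with the other 4 close together. The estimated log2 change was -0.47 ± 0.33 SE (95% interval -1.25 to 0.32, limma adjusted p = 0.632), and -0.10 in the deposited values.

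**Figure D2:**
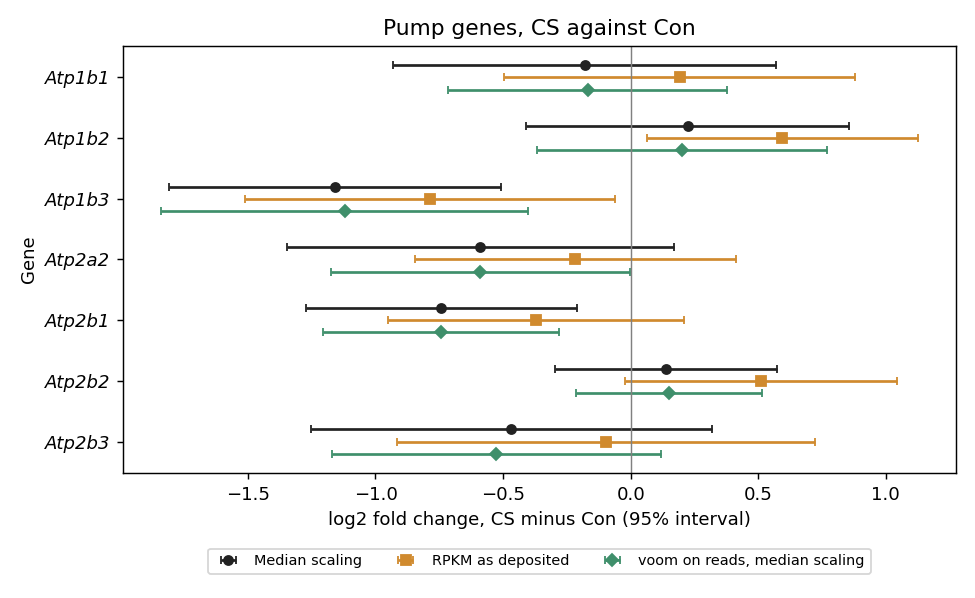
Log2 fold change of each pump gene, CS minus Con, with its 95% interval, from limma after median scaling, from limma on the RPKM as deposited and from voom on the reads with median scaling. Atp1b3 is lowest in all 3 settings (-1.16, -0.79 and -1.12), and the deposited values lie to the right of the scaled ones for every gene.

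Promoters of the pair with the lowest estimates, Atp1b3 and Atp2b1, are shown with those of Atp1b1 and Atp2b2, for which the estimate was near 0 or above it. RefSeq promoters (GRCm38.p6, 250 bases before to 50 after the start) were matched for 4 of the 7 genes, and the one nearest to the start of the deposited row is printed. Capitals mark GGGCGG or its reverse complement, the core of a GC box, the motif of Sp1-type factors.
Atp1b3 promoter, chr9:96364382-96364681, minus strand: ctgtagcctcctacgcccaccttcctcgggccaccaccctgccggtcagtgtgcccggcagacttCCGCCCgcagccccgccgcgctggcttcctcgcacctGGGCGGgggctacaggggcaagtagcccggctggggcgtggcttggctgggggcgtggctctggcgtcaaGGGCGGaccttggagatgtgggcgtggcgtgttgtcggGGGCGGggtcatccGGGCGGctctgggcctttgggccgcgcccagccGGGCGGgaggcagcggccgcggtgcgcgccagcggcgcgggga
Atp2b1 promoter, chr10:98914902-98915201, plus strand: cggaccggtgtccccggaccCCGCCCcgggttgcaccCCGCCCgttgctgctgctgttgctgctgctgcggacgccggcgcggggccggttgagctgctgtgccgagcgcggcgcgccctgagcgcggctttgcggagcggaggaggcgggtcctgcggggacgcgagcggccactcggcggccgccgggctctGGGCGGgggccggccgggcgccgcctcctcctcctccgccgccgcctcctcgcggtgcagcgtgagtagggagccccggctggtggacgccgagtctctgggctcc
Atp1b1 promoter, chr1:164458306-164458605, minus strand: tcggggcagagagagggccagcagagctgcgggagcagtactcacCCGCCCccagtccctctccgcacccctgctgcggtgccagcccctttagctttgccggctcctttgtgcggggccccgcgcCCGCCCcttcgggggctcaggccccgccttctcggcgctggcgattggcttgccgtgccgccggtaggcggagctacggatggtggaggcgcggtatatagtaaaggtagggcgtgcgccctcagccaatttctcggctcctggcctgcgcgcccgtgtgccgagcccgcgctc
Atp2b2 promoter, chr6:114042031-114042330, minus strand: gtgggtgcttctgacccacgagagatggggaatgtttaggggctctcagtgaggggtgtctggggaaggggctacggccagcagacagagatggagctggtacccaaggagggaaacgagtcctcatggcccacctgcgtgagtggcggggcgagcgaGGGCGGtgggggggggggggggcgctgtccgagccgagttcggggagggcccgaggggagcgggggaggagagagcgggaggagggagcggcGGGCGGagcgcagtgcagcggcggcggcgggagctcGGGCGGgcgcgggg
GGGCGG on either strand was found 6 times in Atp1b3, 3 times in Atp2b1, 2 times in Atp1b1 and 3 times in Atp2b2, and in 35.7% of the 32851 promoters of the same length. The promoters held 34, 45, 31 and 27 CG dinucleotides in that order, against a median of 7 over all promoters. TGACG, the core of the cAMP response element, was found on either strand 1 time in Atp1b3 and in none of the other 3 printed promoters, and in 20.8% of all promoters. Promoters that are not printed held it 1 time for Atp2b1 (chr10:98914392-98914691) and 1 time for Atp1b3 (chr9:96363666-96363965). CCAAT occurred 2 times in Atp1b1 only, with 37.4% of all promoters holding it, and TATAAA in none of the 4, with 13.6% of all. GGGCGG occurred in all 4 printed promoters, and its part in the estimates was not tested.

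Ratios between pump genes within a library do not depend on library scaling, and they address whether neuronal and glial or broad isoforms moved apart. Of 5 ratios compared, the groups did not overlap in 2. The ratio of Atp2b2 to Atp2b1 was 0.575, 0.838 and 0.730 in CS libraries 1, 2 and 3, against 0.470, 0.370 and 0.320 in Con libraries 1, 2 and 3. The neuronal pump gene was thus higher relative to the broad one in all CS libraries, by 0.89 on the log2 scale (exact two-sided permutation p = 0.1, adjusted 0.25). Among rows of at least 60 reads, 37.6% had a ratio to Atp2b1 that was higher in every CS library than in every Con library. The ratio of Atp1b3 to Atp1b2 was 0.277, 0.169 and 0.383 in the CS libraries, against 0.695, 0.988 and 0.482 in the Con libraries. It was lower in all CS libraries, by -1.40 on the log2 scale (exact two-sided permutation p = 0.1, adjusted 0.25), as was the ratio to Atp1b2 of 17.8% of rows. With 3 libraries against 3 the smallest p this test can give is 0.1.

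**Figure D3:**
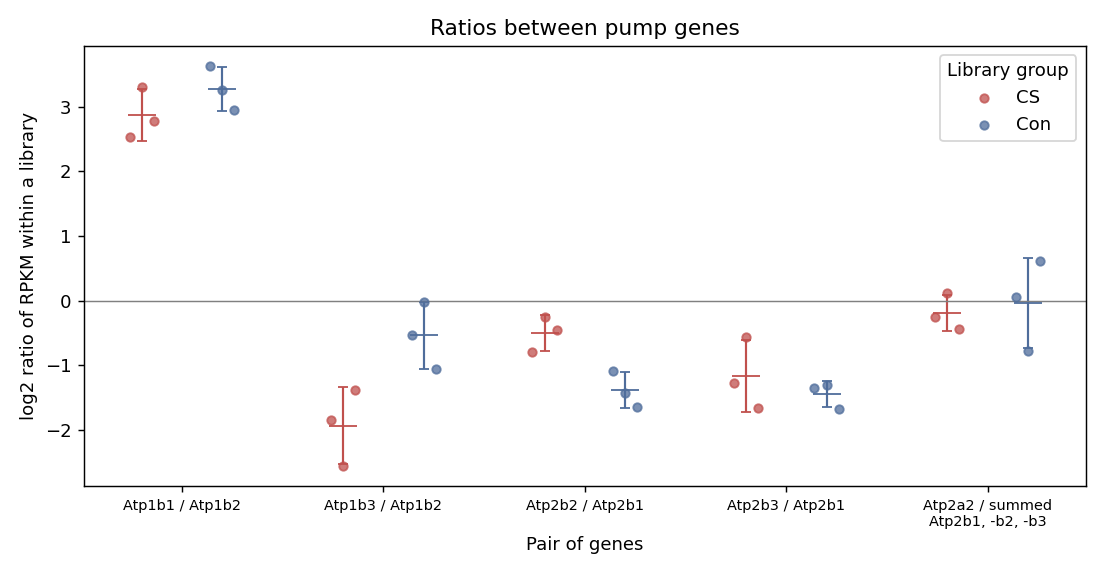
Log2 ratio of RPKM between pump genes within each library, with a point per library, CS left of Con, a dash at the mean and bars of 1 SD (n = 3 libraries per group). The groups are apart for Atp1b3 over Atp1b2 and for Atp2b2 over Atp2b1 and overlap for the other 3 ratios.

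The ratio of the neuronal Atp1b1 to the glial Atp1b2 was 5.76, 9.91 and 6.87 in the CS libraries, against 12.4, 9.55 and 7.73 in the Con libraries. CS library 2 lay within the range of Con, and the log2 difference of -0.41 was slightly larger than the SD of each group (0.400 in CS and 0.340 in Con), with overlapping ranges (exact two-sided permutation p = 0.3, adjusted 0.5). The ratio of Atp2b3 to Atp2b1 had a log2 mean of -1.17 ± 0.56 in CS and -1.44 ± 0.21 in Con (SD, n = 3 each, exact permutation p = 0.4). For Atp2a2 over the 3 summed plasma membrane pumps these means were -0.19 ± 0.28 in CS and -0.04 ± 0.70 in Con (SD, n = 3 each, exact permutation p = 0.9).

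Within the beta subunits Atp1b1 made up 84.8% ± 4.05 of the summed RPKM in CS and 84.9% ± 2.73 in Con (SD, n = 3 each). Atp1b2 made up 11.8% ± 2.61 in CS and 8.87% ± 1.88 in Con, and Atp1b3 3.37% ± 1.63 in CS and 6.24% ± 2.02 in Con. Among the plasma membrane calcium pumps Atp2b1 made up 46.3% ± 5.71 in CS and 57.1% ± 3.84 in Con, and Atp2b2 32.6% ± 3.43 in CS and 21.9% ± 2.94 in Con. The share of Atp2b3 was 21.1% ± 5.72 in CS and 21.0% ± 1.87 in Con. Shares of a family sum to 100%, so a lower share of 1 gene raises the others.

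**Figure D4:**
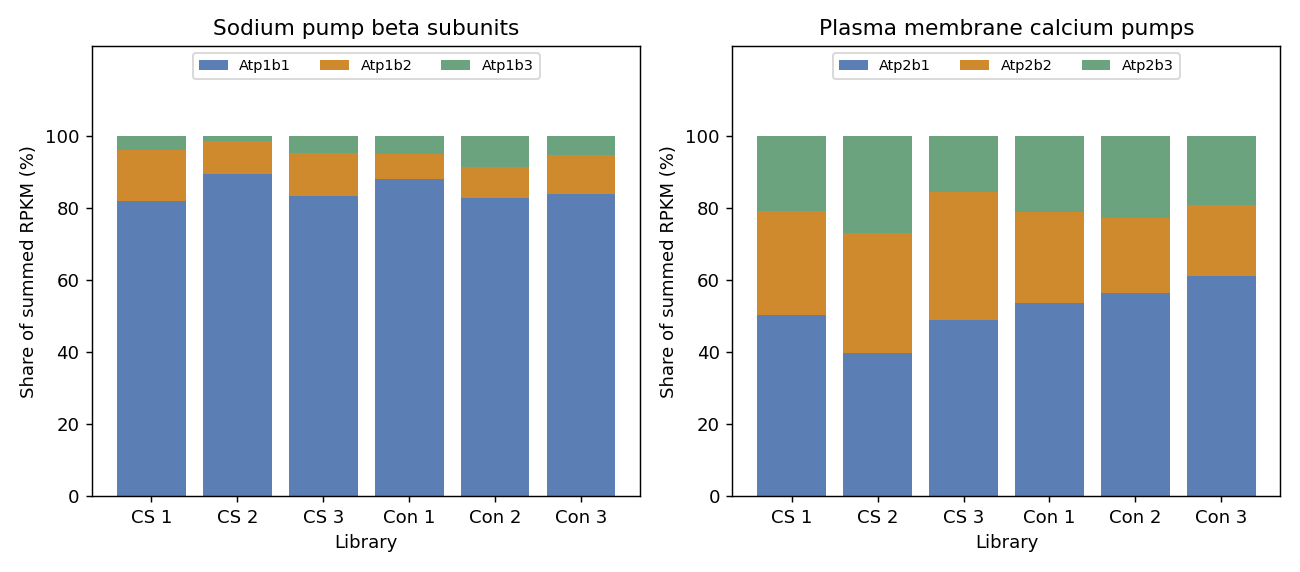
Share of each gene in the summed RPKM of the 3 sodium pump beta subunits (left) and of the 3 plasma membrane calcium pumps (right), as stacked bars for each library, CS left of Con. Atp1b1 fills 81.8% to 89.4% of the CS bars and 82.8% to 88.0% of the Con bars, and Atp2b1 39.8% to 50.3% of the CS bars and 53.7% to 61.3% of the Con bars.

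Cell type markers were set beside these values. The oligodendrocyte list is covered here only in part. Of its 5 markers covered, 4 had a lower estimate, and their summed level was 42.2 to 50.7 RPKM in CS and 49.9 to 65.4 RPKM in Con, which overlapped. In the deposited values it was 50.9 to 56.9 RPKM in CS and 40.5 to 63.4 RPKM in Con. After scaling the groups were apart for the 1 ependymal marker, Foxj1, as for Atp1b3 and Atp2b1. Foxj1 had 1.08 to 2.24 RPKM in CS and 4.59 to 5.07 RPKM in Con. It was also apart in the deposited values (1.30 to 2.51 RPKM in CS and 3.74 to 4.48 RPKM in Con). Single markers of other lists were apart after scaling too, with 1 neuron, 1 GABAergic and 1 oligodendrocyte marker higher in CS. In the other direction, 2 neuron markers and 1 microglia marker were lower. Of all rows, 7.57% were apart upward and 15.4% downward. The 8 astrocyte markers summed to 90.6 to 121 RPKM in CS and 96.8 to 111 RPKM in Con. In the deposited values these sums lay apart, at 109 to 136 RPKM in CS and 78.5 to 98.2 RPKM in Con. Of all rows, 18.5% were higher in every CS library as deposited. The 8 neuron markers summed to 789 to 976 RPKM in CS and 960 to 1246 RPKM in Con, and overlapped in the deposited values too. Among the neuron markers, 4 estimates lay above 0 and 4 below (median 0.01 on the log2 scale), and the summed level is mostly that of Gap43 and Nefl. The 5 microglia markers summed to 24.3 to 32.7 RPKM in CS and 27.4 to 48.6 RPKM in Con. The 3 endothelial markers summed to 0.685 to 2.44 RPKM in CS and 0.931 to 5.86 RPKM in Con, and the 2 glutamatergic markers to 8.02 to 19.2 RPKM in CS and 8.28 to 33.2 RPKM in Con. By voom with median scaling 2 neuron markers (Syt1 and Nefl), 1 microglia marker (Cx3cr1) and Foxj1 were called lower. It called 0 of the markers covered higher, where 6.29% of all rows were called lower and 0.258% higher. With library totals voom called 0 of the markers covered lower and 1 GABAergic marker higher, against 2.42% and 2.60% of all rows. No marker of these lists was without a read over the 6 libraries. The part of cell composition in the values of Atp1b3 and Atp2b1 was not tested.

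The partners and relatives of the pumps were followed in 8 further lists, of which 47 genes are covered here. Of these, 39 were tested, with 25 estimates above 0, 14 below 0 and a median log2 fold change of 0.13 (0.50 as deposited), and 0 passed by limma over all rows. Over all tested rows 10685 estimates were higher and 9865 lower in CS. Only 26 of the 39 held at least 60 reads, so part of the estimates rest on few reads. Without adjustment limma had 1 higher and 4 lower genes at a p under 0.05, and voom with median scaling called 0 higher and 2 lower of 26, against 0.258% and 6.29% of all rows. The 2 lower by voom were Slc8a2 and Ryr1. When library totals replaced median scaling, voom called 2 higher, Calm2 and Calm3, and 0 lower, against 2.60% and 2.42% of all rows.

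Among the regulators, Fxyd6, a small modulator of the sodium pump, had an estimate of -0.17 ± 0.39 SE (log2), and Fxyd7, its brain-specific relative, had 8.51 ± 2.08 RPKM in CS and 3.73 ± 3.74 RPKM in Con (SD, n = 3 each), with overlapping groups and only 38 reads in CS and 9 in Con (limma adjusted p = 0.564). The plasma membrane calcium pump needs neuroplastin or basigin as a partner. Their genes Nptn and Bsg had log2 fold changes of -0.14 ± 0.42 SE and 0.34 ± 0.27 SE. Calm2 and Calm3 encode calmodulin, which activates the plasma membrane pumps, and both had estimates above 0. Calm3 had 430 ± 36.9 RPKM in CS and 302 ± 19.4 RPKM in Con (SD, n = 3 each, log2 fold change 0.51 ± 0.15 SE, limma adjusted p = 0.23), and Calm2 had 594 ± 55.6 RPKM in CS and 450 ± 53.0 RPKM in Con. Both had all CS libraries above all Con libraries after scaling and in the deposited values, as 7.57% and 18.5% of all rows had. Atp2b4, the gene of the fourth plasma membrane pump, had 6.12 ± 0.402 RPKM in CS and 5.58 ± 0.713 RPKM in Con.

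Genes of other calcium routes had estimates in both directions. Slc8a2, a sodium-calcium exchanger of neurons, had 5.71 ± 0.692 RPKM in CS and 11.0 ± 2.30 RPKM in Con (SD, n = 3 each, log2 fold change -0.92 ± 0.23 SE, limma adjusted p = 0.157, limma voom adjusted p = 0.0395, and 0.184 by voom with library totals). Its relatives Slc8a1 (0.08 ± 0.27) and Slc8a3 (0.20 ± 0.28) and the potassium-dependent exchanger gene Slc24a3 (-0.32 ± 0.36) had overlapping groups. Of the release channels of the endoplasmic reticulum, Ryr1 had 3.43 ± 0.978 RPKM in CS and 6.80 ± 0.788 RPKM in Con (SD, n = 3 each, log2 fold change -1.01 ± 0.31 SE, and -0.64 in the deposited values). Its adjusted p was 0.235 by limma, 0.0239 by limma voom and 0.0932 by voom with library totals. By contrast, Ryr2 (0.02 ± 0.18), Ryr3 (0.12 ± 0.21) and Itpr1 (0.13 ± 0.18) lay near 0. Of the store sensors, Stim1 had 0.13 ± 0.24 and Stim2 -0.74 ± 0.28 (limma adjusted p = 0.339). Among mitochondrial calcium genes Micu3, a brain regulator of the uniporter, had -0.85 ± 0.25 (limma adjusted p = 0.223), Micu2 -0.01 ± 0.34 and Letm1 0.38 ± 0.20.

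The rows whose scaled log2 values were most like a pump gene over the 6 libraries were found by Pearson's r among 9316 tested rows of at least 60 reads, which leave out mitochondrial genes, pseudogenes and gene models with only clone or provisional names. For Atp1b3 they were Sec61a1 and Atrnl1, for Atp2b1 Ahctf1 and Mroh6, and Kansl3 was among those for Atp2b2. For Atp1b1 they were Axl and Ak5, for Atp1b2 Wdfy2 and Hcfc1r1, for Atp2a2 Epb41l1 and Arhgap33, and for Atp2b3 Hadh and Sri. Their r lay between 0.987 and 0.999. With only 6 libraries the row at place 200 still had an r of 0.834 to 0.935, so this likeness singles out no gene.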

How the data were processed

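The deposited table holds RPKM, which the authors computed per kilobase of row length and per 1e6 assigned reads. Per the submitters' processing notes, Trimmomatic 0.36 and featureCounts of Subread 1.5.1 were used, with builds GRCm38 and mm10; the sources used here give neither aligner nor strand setting, so opposite-strand overlaps may share reads. RPKM times length gave whole reads for 100% of values above 0 (tolerance 0.01 read). Rows with a mean of at least 0.5 RPKM (20550) were tested as log2(RPKM + 0.1) after median scaling with limma 3.58.1 in R 4.3.3 (eBayes with trend, Benjamini-Hochberg, threshold 0.05); limma voom was run on 10463 rows of at least 60 reads. On simulated CS and Con reads, limma (20414 rows) recovered 1 of 100 genes made 2-fold different, 42 of 100 made 4-fold different, and called 51 unchanged rows. On the same reads voom (10431 rows) recovered 53 of 98 and 97 of 98 and called 10. The simulation gave every row the same spread beyond counting error and no shift between groups. These counts therefore need not hold for the real libraries. Ratios were compared by exact permutation. The members, lists and tests were chosen with earlier results of these data known. Beyond the members, genes were named from the lists if their mean reached 5 RPKM or a fit called them, plus the 2 rows most like each member. A few genes of the lists and 1 of these rows are not reported here and were left out of the lists' counts and sums.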

Additional observations from a re-analysis of the deposited data

How the results depend on the processing

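Under 17 alternatives, Atp1b3, Atp2a2, Atp2b1 and Atp2b3 had a lower and Atp1b2 and Atp2b2 a higher estimate each time. The lowest estimate was 0.029 for Atp1b2, without Con library 2, and 0.00095 for Atp2b2, without Con library 3. For Atp1b1 the log2 fold change turned to 0.19 in the deposited values, 0.19 with quantile normalization and 0.19 by voom with library totals, and lay between -0.48 and 0.014 with 1 library left out. Atp2b1 passed in 1 setting, voom with the replicate block (-0.74, limma voom adjusted p = 0.0359). In that setting 747 of 10463 rows passed, 13 higher and 734 lower in CS. The other 6 members passed in none. Same-numbered libraries did not deviate together (correlations of -0.07, 0.002 and 0.02), so the numbers are not taken as pairs. The number of called rows, 199, became 112 with a pseudocount of 1, 107 with no filter, 428 with at least 60 reads, 65 as deposited (35 higher and 30 lower, against 36 and 163), 110 with quantile normalization (37 and 73), 146 with no variance trend (111 higher and 35 lower), 0 with the replicate block (1691 at an unadjusted p under 0.05), 685 by voom, 525 by voom with library totals, 747 by voom with the replicate block, and 8, 15 and 49 without CS library 1, 2 and 3 and 61, 297 and 110 without Con library 1, 2 and 3. Leaving out a library turned the ratio of Atp2b3 to Atp2b1 to -0.025 without CS library 2 (highest 0.52), and that of Atp2a2 to the summed pumps to 0.17 without Con library 3 (lowest -0.53); the other 3 ratios kept their direction. With the replicate block the ratio differences were unchanged by construction (Atp2b2 to Atp2b1 0.89, exact p = 0.25). The cause of these changes was not tested. The planned negative binomial count models were not run. The deposited unit is RPKM, and the reads recovered from it were tested by limma voom. Counting error limits Atp1b3, with 119 reads.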
